A study of Mus musculus with 24 samples.

Results

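The 8 genes described here encode parts of the contractile apparatus of smooth muscle: the actins Acta2 and Actg2, the myosin heavy chain Myh11, the myosin regulatory light chain Myl9, the actin-binding proteins Tagln, Cnn1 and Lmod1, and the intermediate filament protein Des. They were taken by gene symbol from the table of read counts per gene and are 8 of its 54232 genes. All 8 passed the filter on low counts that left 26116 genes for testing. Together they held from 129 to 1293 counts per library, which was between 0.0112% and 0.0795% of all counts.

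In smooth muscle, calcium entry activates myosin light chain kinase, which phosphorylates the regulatory light chain and lets myosin filaments pull on actin filaments. Calponin, transgelin and leiomodin bind the actin filaments, and desmin filaments tie the contractile units together. Serum response factor, bound to the CArG box together with myocardin family coactivators, drives many of these genes. In fat, the proteins are found mainly in the walls of arteries and veins, and in the male reproductive tract a smooth muscle coat surrounds the duct of the epididymis, beside which the epididymal fat pad lies.

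The study asked how partial nephrectomy and an adipocyte-directed NaKtide peptide alter the visceral fat transcriptome in male C57BL6 mice on normal chow, at least 10 weeks old when bought. NaKtide is derived from the Na,K-ATPase and inhibits its Src signaling. Each of 4 groups held 6 RNA libraries. All mice received a lentivirus intraperitoneally whose cargo is driven by the adiponectin promoter, so every group carried GFP. Control mice had a sham operation and the GFP virus. NaKtide mice had the sham operation and a virus that joins NaKtide to GFP through a self-cleaving peptide. PNx mice had the subtotal nephrectomy and the GFP virus. The upper and lower poles of the left kidney were ligated, leaving part of it functional, and the right kidney was removed later. PNx+NaKtide mice had the nephrectomy and the NaKtide virus. The promoter is active in adipocytes.

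The libraries held from 679250 to 2979505 counts. Summed adipocyte markers ranged from 124 to 6958 CPM (counts scaled to library size with edgeR's TMM factors), and 3 of the 12 markers were at 0 in 1 library each. Adipoq, which encodes adiponectin, was above 0 in every library. Summed epididymis markers exceeded the adipocyte sum in 20 of the 24 libraries. On the first principal component PNx replicates 1, 2 and 3 lay between 191 and 234, PNx+NaKtide replicates 2, 3 and 4 between 69.5 and 77.8, and the other 18 libraries at or below 32.5. PNx replicate 6 and NaKtide replicate 6 had the highest adipocyte sums, 6958 and 5349 CPM, against at most 1204 elsewhere. The 12 testis germ cell markers summed to 1065, 1099 and 1161 CPM in PNx replicates 1, 2 and 3, to 687, 880.1 and 978 in PNx+NaKtide replicates 2, 3 and 4, and to between 106 and 703 elsewhere, and their part in the results was not tested. The tests between groups were therefore also computed without PNx replicates 1, 2 and 3, without PNx+NaKtide replicates 2, 3 and 4, and without the replicates 6 of PNx and NaKtide, and the tested relations without the first of these sets, choices made after seeing the data.

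The deposited counts carry a limit of strand for all 8 genes, of which Tagln shares the most exon bases with an opposite-strand gene. The library kit keeps strand, while the strand setting of the counting step is not given in the sources used here. mt-Nd6, the only mRNA transcribed from its strand of the mitochondrial genome, had 67.6 times as many counts per kb as the 12 mitochondrial mRNAs of the other strand together, and the higher value in 24 of 24 libraries. Of 352 pairs of an annotated antisense gene and a protein-coding gene that share at least 500 exon bases, the antisense gene held more counts in 252 (71.6%). In both checks the higher counts were listed under the mitochondrial gene of the other strand or, in most pairs, under the antisense gene. Whether the counts listed for the 8 genes hold reads of their own strand or of the opposite one was not tested. Levels and fold changes given below are therefore those of the counts listed under each gene's name, and may not be those of its own transcript.

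Tagln encodes transgelin, also called SM22, an early marker of smooth muscle. It lies at chr9:45929619-45936058 (GRCm38, minus strand), and 1241 of its 1988 exon bases (62.4%) are also exon bases of Gm48529, a gene annotated as antisense on the plus strand at chr9:45930112-45933738. All 603 coding bases of Tagln are inside Gm48529 exons. The first 120 coding bases are shown because reads from them are named for one gene or the other by strand alone. They lie at chr9:45931642-45931761. Capitals mark the start codon of Tagln, and the second line is the same stretch read on the plus strand.
Tagln, coding strand: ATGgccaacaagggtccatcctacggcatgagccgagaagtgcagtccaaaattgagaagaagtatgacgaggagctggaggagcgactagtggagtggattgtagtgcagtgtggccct
Gm48529, the same bases: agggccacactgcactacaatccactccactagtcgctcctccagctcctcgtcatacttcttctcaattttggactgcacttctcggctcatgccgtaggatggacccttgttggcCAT
Gm48529 was listed with 93216 counts over the 24 libraries and ranked 40 in the table, while Tagln was listed with 4895. Gm48529 thus held 95.01% of the counts of the pair, and its share per library ran from 77.2% (PNx replicate 1) to 97.9% (PNx+NaKtide replicate 2). Another 108 exon bases of Tagln are shared with Pcsk7, a proprotein convertase gene with 956 counts, and 220 of Des with Gm15179, which had 23 counts. The other 6 genes share no exon base with an annotated opposite-strand gene.

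Acta2 (smooth muscle alpha-actin, chr19:34241090-34255590, minus strand) and Actg2 (enteric gamma-actin, chr6:83512905-83536265, minus strand) are near relatives, and their reads must be told apart by scattered base differences. Their coding sequences were 84.4% identical over the aligned bases, and the longest run without a difference was 29 bases. The 90 coding bases in which they are most alike are shown with the 9 differing bases in capitals (coding bases 898 to 987 of Acta2 and 895 to 984 of Actg2).
Acta2: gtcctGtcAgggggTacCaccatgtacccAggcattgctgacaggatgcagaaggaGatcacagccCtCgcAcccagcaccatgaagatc
Actg2: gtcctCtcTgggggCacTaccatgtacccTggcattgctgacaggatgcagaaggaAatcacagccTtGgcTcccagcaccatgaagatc
No stretch of 50 bases, the read length, was shared between Acta2 and Actg2 transcripts. Of the 2146 words of 50 bases in Acta2 transcripts, 7 (0.326%) also occurred in transcripts of another gene on the same strand. All 7 were in cytoplasmic gamma-actin (Actg1) and also in other genes, among them Actg-ps1 and Gm12715. For Myh11 the number was 26 of 7644 (0.34%), shared with the non-muscle myosins Myh9 and Myh10. Tagln, Cnn1, Des, Myl9, Lmod1 and Actg2 had none.

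The RefSeq promoter table for GRCm38.p6 held the windows of 5 of the 8 genes (Acta2, Cnn1, Des, Lmod1 and Myl9). The CArG box is the binding sequence of serum response factor, and an exact one was found in 1 of the 5, Myl9, against 1.63% of the 32851 promoters in the table. With up to 1 G or C allowed in the AT core, 2 of the 5 (Acta2 and Myl9) held at least 1 match, against 9.98% of all promoters. The box reads the same way on both strands, and the windows searched ran from 250 bases before the start to 50 after it. The 250 bases before each start are shown for these genes, with the matches in capitals.
Acta2, chr19:34255374-34255623, minus strand: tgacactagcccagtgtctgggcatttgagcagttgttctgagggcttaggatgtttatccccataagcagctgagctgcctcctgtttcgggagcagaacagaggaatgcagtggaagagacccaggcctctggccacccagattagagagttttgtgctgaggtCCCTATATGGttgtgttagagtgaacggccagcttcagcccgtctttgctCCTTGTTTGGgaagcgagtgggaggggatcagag
Myl9, chr2:156775214-156775463, plus strand: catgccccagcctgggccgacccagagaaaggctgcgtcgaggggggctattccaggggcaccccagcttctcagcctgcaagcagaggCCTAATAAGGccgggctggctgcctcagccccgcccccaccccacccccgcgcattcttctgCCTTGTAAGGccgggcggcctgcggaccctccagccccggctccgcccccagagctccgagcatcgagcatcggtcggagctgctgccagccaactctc
In Acta2 the matches began 84 and 34 bases before the start, and in Myl9 161 and 99 bases before it. The matches describe these letters only.

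Scaled to length as the authors' FPKM (fragments scaled to gene length and library size), the genes stood in the order Tagln, Actg2, Myl9, Acta2, Myh11, Des, Lmod1 and Cnn1, with medians of 56.7, 33.4, 23.9, 9.03, 8.397, 2.74, 2.42 and 1.85 over the 24 libraries. Tagln exceeded Actg2 in 20 libraries and Actg2 exceeded Myl9 in 18. The step from Myl9 to Acta2 held in 24 of 24 libraries and that from Myh11 to Des in 22. Acta2 exceeded Myh11 in 17 libraries, Des exceeded Lmod1 in 15 and Lmod1 exceeded Cnn1 in 13, so these neighbours did not differ beyond their spread between libraries. Gm48529 had a median of 863 FPKM.

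Differences between groups were tested with edgeR's quasi-likelihood test over all 26116 genes, and a gene was called at a Benjamini-Hochberg adjusted p under 0.1, the threshold of the study. None of the 8 genes was called in PNx against Control, where 0.0766% of all genes were called (20, all lower), and none had an unadjusted p under 0.05, against 25.4% of all genes. With DESeq2's size factors in the same edgeR fit, 8696 genes were called there, 7971 of them higher, and none of the 8 was among them. None was called in the other 3 comparisons or in the interaction, where edgeR called no gene at all (0% of those tested). The calls depended on the tool. DESeq2 called none of the 8 in 4 of these 5 tests and 3 as higher in PNx+NaKtide against PNx (1.72% of its genes were). Over all genes DESeq2 called 7764 in PNx against Control and 1514 in PNx+NaKtide against PNx. It called only 3 in NaKtide against Control, 2 in PNx+NaKtide against NaKtide and 94 in the interaction. limma voom with sample weights called all 8 as lower in PNx against Control (31% of all genes were called lower), all 8 as higher in the PNx+NaKtide comparison with PNx (24% were called higher), 6 as higher in the interaction (16.1% were) and none in the other 2. In no comparison did the 6 libraries of one group lie wholly above or below the 6 of the other for any of the 8 genes. How many of all tested genes separate in this way was not computed. In bulk tissue, fewer smooth muscle cells and less RNA per cell cannot be told apart.

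**Figure D1:**
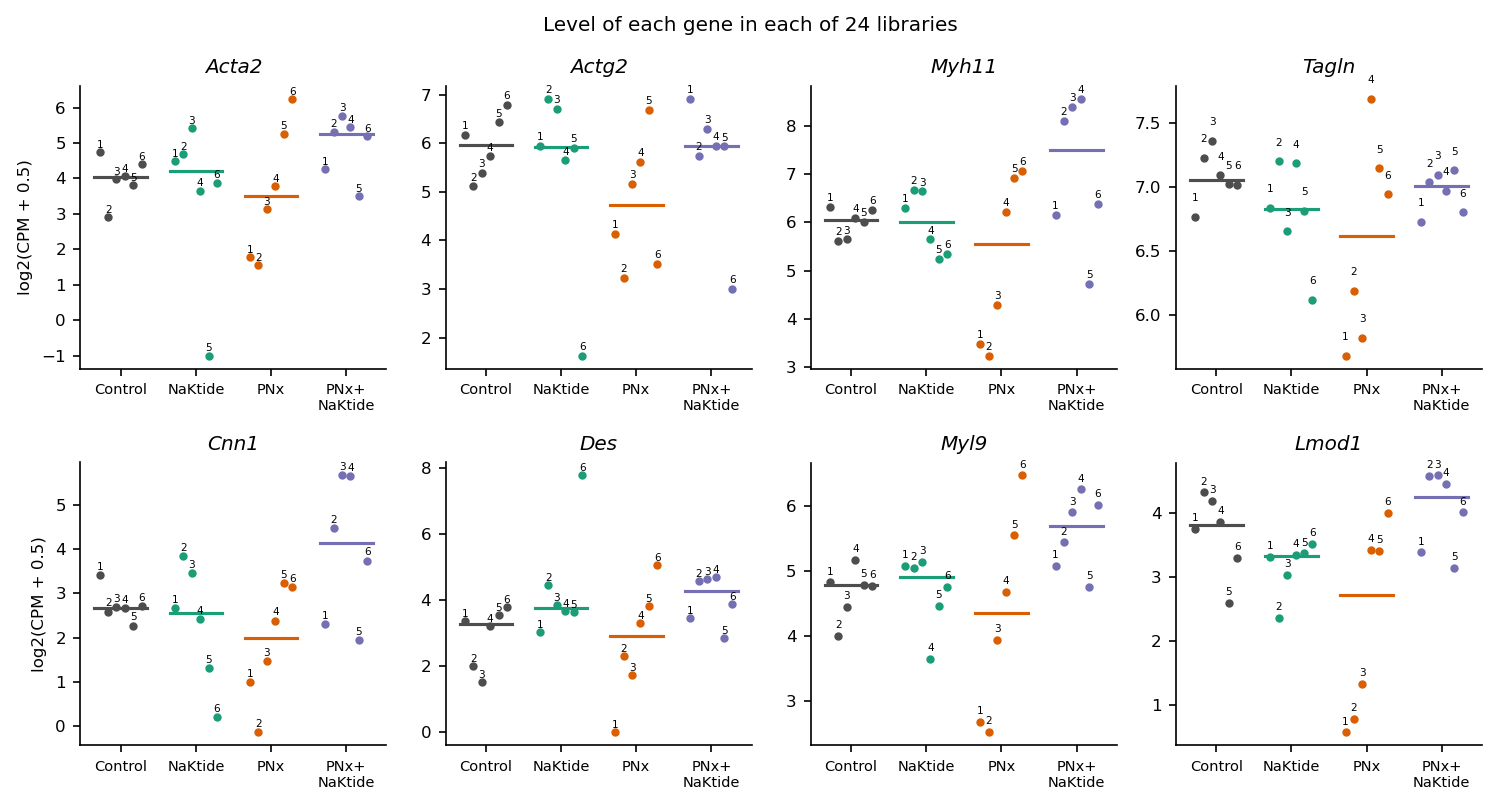
Level of each of the 8 genes in each library as log2(CPM + 0.5), with the replicate number beside each point and a line at the group median. In PNx, replicates 1 and 2 are among the lowest 5 of the 24 libraries for all 8 genes, and in PNx+NaKtide replicates 2, 3 and 4 hold the 3 highest Myh11 and Cnn1 values.

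Acta2, the isoform of vascular smooth muscle, ranged from 7.005 to 26.5 CPM with a median of 15.9 in Control and from 0 to 42.6 CPM with a median of 18.1 in NaKtide. In PNx it ranged from 2.42 to 75.5 CPM with a median of 10.8, and in PNx+NaKtide from 10.8 to 54.3 CPM with a median of 37.8. PNx replicate 6 was the highest of all 24 libraries and PNx replicate 2 the lowest but 1, and the PNx libraries overlapped every other group. NaKtide replicate 5, the shallowest library, had no Acta2 count, which at its depth allows a level of up to 5.91 CPM. The log2 fold change in PNx against Control was 0.49 (SE 0.68, adjusted p = 0.645). Leaving out PNx replicate 6 made it -0.38, leaving out PNx replicates 1, 2 and 3 made it 1.25, and limma voom gave -1.38, so the sign turned with the libraries and their weights.

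Myl9, the light chain whose phosphorylation starts contraction (chr2:156775420-156781658, plus strand), was also widest in PNx. It ranged from 15.5 to 35.6 CPM with a median of 27.0 in Control and from 12.1 to 34.9 CPM with a median of 29.5 in NaKtide. In PNx it ranged from 5.25 to 88.3 CPM with a median of 20.01, and in PNx+NaKtide from 26.6 to 76.0 CPM with a median of 51.1. PNx replicates 1, 2 and 3 lay below every Control library while PNx replicates 5 and 6 lay above every one. Nephrectomy with the GFP virus gave a log2 fold change of 0.27 (SE 0.50, adjusted p = 0.744) over Control, and it was 0.70 (SE 0.50, adjusted p = 0.485) in PNx+NaKtide against PNx. The latter was -0.03 without PNx replicates 1, 2 and 3.

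Myh11, the motor protein that defines mature smooth muscle (chr16:14194535-14291372, minus strand), ranged from 48.5 to 79.8 CPM with a median of 65.9 in Control and from 37.4 to 101 CPM with a median of 64.2 in NaKtide. PNx replicates 1, 2 and 3 had 10.6, 8.88 and 18.9 CPM, and replicates 4, 5 and 6 73.8, 121 and 134. In PNx+NaKtide replicates 2, 3 and 4 it reached 278, 338 and 380.0 CPM, while replicates 1, 5 and 6 had 70.8, 25.8 and 82.8. Those 3 PNx libraries were thus below all 12 sham libraries, and those 3 PNx+NaKtide libraries above all 21 others. PNx+NaKtide against PNx gave a log2 fold change of 1.68 (SE 0.61, unadjusted p = 0.0106, adjusted p = 0.357). It was 0.82 without PNx replicates 1, 2 and 3 (adjusted p = 0.475) and 0.00279 without PNx+NaKtide replicates 2, 3 and 4 (adjusted p = 0.999). In PNx against Control it was -0.08 (SE 0.60, adjusted p = 0.945), with PNx replicates 1, 2 and 3 below the Control range and replicates 5 and 6 above it.

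Cnn1, which encodes calponin, an inhibitor of the myosin ATPase (chr9:22099216-22109630, plus strand), had the lowest median FPKM of the 8. It ranged from 4.32 to 10.2 CPM with a median of 5.88 in Control, from 0.647 to 13.9 CPM with a median of 5.35 in NaKtide and from 0.404 to 8.91 CPM with a median of 3.49 in PNx. PNx replicates 1, 2 and 3 had 1.48, 0.404 and 2.27 CPM, below every Control library but overlapping NaKtide replicates 5 (1.97) and 6 (0.647), and no PNx library exceeded the highest Control library. PNx+NaKtide replicates 2, 3 and 4 had 21.7, 50.7 and 49.9 CPM, all above the other 21 libraries, and replicates 1, 5 and 6 had 4.43, 3.33 and 12.9. Its values rest on 389 counts in all. PNx+NaKtide against PNx gave the largest log2 fold change of the 8 genes, 2.47 (SE 0.69, unadjusted p = 0.00125, adjusted p = 0.357). It was 1.66 without PNx replicates 1, 2 and 3 and 0.72 without PNx+NaKtide replicates 2, 3 and 4.

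Lmod1 encodes leiomodin, which nucleates actin filaments (chr1:135324807-135368065, plus strand). It ranged from 5.55 to 19.5 CPM with a median of 13.5 in Control and from 4.64 to 11.0 CPM with a median of 9.57 in NaKtide. PNx replicates 1, 2 and 3 had 0.986, 1.21 and 2.02 CPM (4, 3 and 8 counts), the 3 lowest values of all libraries, and replicates 4, 5 and 6 10.2, 10.1 and 15.5. In PNx+NaKtide it ranged from 8.32 to 23.6 CPM with a median of 18.6. PNx against Control gave -1.01 (SE 0.53, adjusted p = 0.220), the most negative value of the 8, and the gene was called without PNx replicate 4 (adjusted p = 0.0985, where 10.1% of all genes were called lower) or without PNx replicate 6 (adjusted p = 0.0874, where 3.72% were). Without replicate 6 of both PNx and NaKtide it was also called (-1.53, adjusted p = 0.0732, where 6.38% were). Without PNx replicates 1, 2 and 3 it was -0.24. PNx+NaKtide against PNx gave 1.38 (SE 0.53, unadjusted p = 0.0152, adjusted p = 0.357), and all 6 PNx+NaKtide libraries were above the PNx median.

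**Figure D2:**
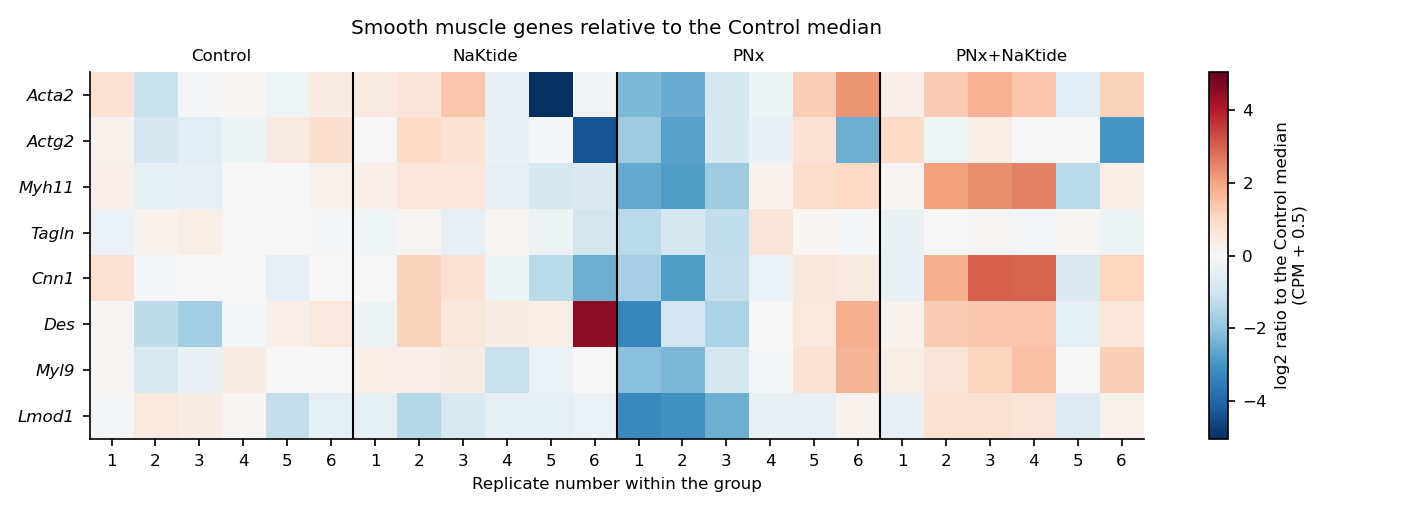
Each gene in each library as the log2 ratio of CPM + 0.5 to the same for the Control median, with libraries in columns by group and replicate. The blue columns are PNx replicates 1, 2 and 3, the darkest blue cell is Acta2 at 0 in NaKtide replicate 5, the red block is Myh11 and Cnn1 in PNx+NaKtide replicates 2, 3 and 4, and the single dark red cell is Des in NaKtide replicate 6 at 219 CPM.

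Des encodes desmin, the intermediate filament protein of smooth, skeletal and cardiac muscle (chr1:75360329-75368579, plus strand). It ranged from 2.37 to 13.4 CPM with a median of 9.25 in Control, from 0.493 to 32.8 CPM with a median of 6.93 in PNx and from 6.65 to 25.3 CPM with a median of 18.8 in PNx+NaKtide. In NaKtide replicate 6 it reached 219 CPM, while the other 5 NaKtide libraries had from 7.66 to 21.2. NaKtide against Control gave 2.56 (SE 0.82, unadjusted p = 0.00462, adjusted p = 0.954), where 2.04% of all genes had an unadjusted p under 0.05 as higher, and 0.71 without that library (adjusted p = 1). The 11 skeletal muscle markers summed to 5849 CPM in NaKtide replicate 6 and to between 12.6 and 113 in the other 23 libraries, and all 11 were highest in that library. Myh4, a fast skeletal myosin, stood at 1819 CPM there and at 0 in 10 other libraries. The part of skeletal muscle RNA in the Des value was not tested. In the same library Actg2, Tagln and Cnn1 were the lowest of the NaKtide group, Lmod1 was its highest by a small margin (11.0 CPM against 9.84 in replicate 5), and Acta2, Myh11 and Myl9 were inside its range.

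Actg2, the actin of visceral smooth muscle, ranged from 34.0 to 109.8 CPM with a median of 62.0 in Control and from 2.59 to 119 CPM with a median of 59.9 in NaKtide. In PNx it ranged from 8.88 to 102 CPM with a median of 26.2, and in PNx+NaKtide from 7.47 to 120.1 CPM with a median of 61.1, so all groups overlapped. It was low in NaKtide replicate 6 (2.59 CPM), PNx+NaKtide replicate 6 (7.47), PNx replicate 2 (8.88) and PNx replicate 6 (10.9), although PNx replicate 6 had the highest Acta2 and Myl9 of all. Actg2 made up 12.7% of the counts of both actins in PNx replicate 6 (95% Wilson interval 8.96 to 17.6, counting error only), 15.4% in NaKtide replicate 6 (6.15 to 33.5) and 17.2% in PNx+NaKtide replicate 6 (9.88 to 28.2). In PNx+NaKtide replicates 2, 3 and 4 it made up from 57.2% to 58.9%, and in the other 18 libraries at least 71.0%. For PNx against Control the log2 fold change was -0.83 (SE 0.63, adjusted p = 0.378). For PNx+NaKtide against PNx it was 0.78 (SE 0.63, adjusted p = 0.521).

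Levels of Actg2 and of epididymis markers varied together. Over the 24 libraries, the log2(CPM + 1) of Actg2 and that of the summed 14 markers had Pearson's r = 0.85 (permutation p = 1e-05, the smallest that 100000 permutations can give) and Spearman's rho = 0.93 (permutation p = 1e-05), with adjusted values of 9.7e-05 and 0.00011 over the 68 relations computed. Leaving out the 2 libraries with the most distant Actg2 values gave r = 0.87, leaving out PNx replicates 1, 2 and 3 gave 0.90, and within the 4 groups r lay between 0.79 and 0.99 (n = 6 each). The marker sum was 20.7 CPM in NaKtide replicate 6, 21.7 in PNx replicate 1, 195 in PNx replicate 2 and 98.1 in PNx replicate 6, but 775 in PNx+NaKtide replicate 6, where Actg2 was also low, against a median of 1181, and Adam7, Lcn5 and Lcn8, secreted or surface proteins of the epididymal duct, had medians of 276, 128 and 129.9 CPM. For the other 7 genes rho with this sum lay between -0.15 and 0.37, and none passed an adjusted permutation p under 0.05, while by Pearson's r Tagln (0.64, adjusted permutation p = 0.00778) and Cnn1 (0.49, adjusted permutation p = 0.0369) did. Actg2 also had rho = 0.72 with summed mesothelium markers, a list for which no p was computed. With that list Acta2, Myl9, Myh11 and Cnn1 had rho between 0.54 and 0.58. Lmod1, Tagln and Des had rho between 0.07 and 0.27 with it. The part of epididymal muscle in the Actg2 counts was not tested.

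**Figure D3:**
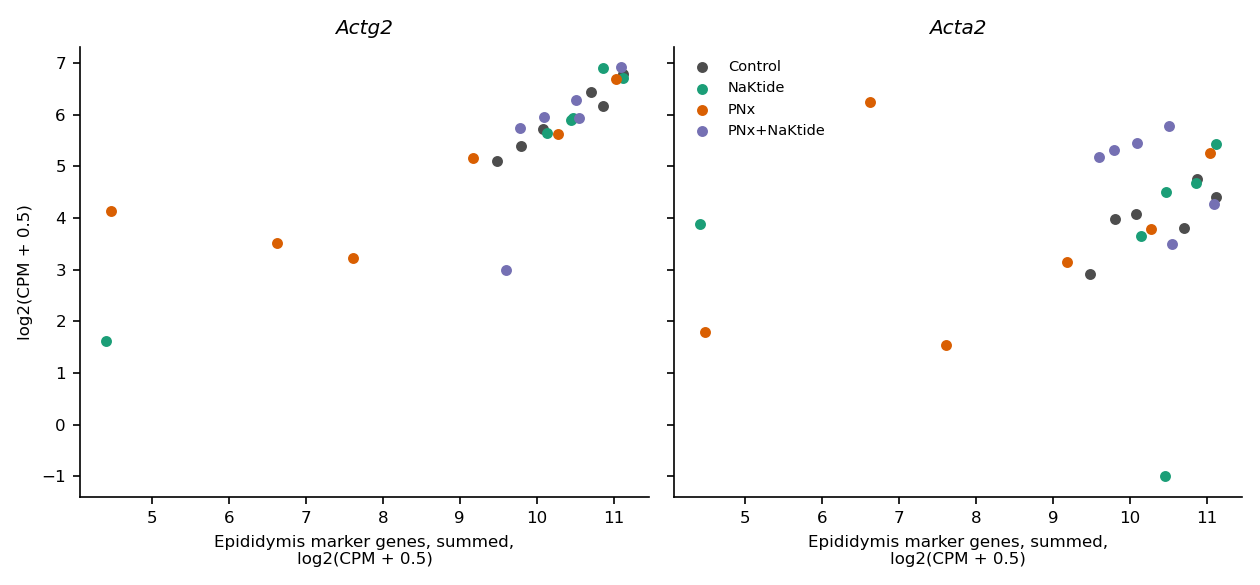
Actg2 (left) and Acta2 (right) in each library against the summed epididymis markers, both as log2(CPM + 0.5), colored by group. Actg2 climbs along the marker sum with rho = 0.93, while Acta2 has rho = 0.30 and its highest point, PNx replicate 6, sits at a low marker sum.

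The listed Tagln counts varied less than those of the other genes, with a coefficient of variation of 28.7% over the 24 libraries against 56.8% to 205% for the other 7. Tagln ranged from 109 to 164 CPM with a median of 133 in Control and from 69.2 to 147 CPM with a median of 113 in NaKtide. It ranged from 51.0 to 206 CPM with a median of 97.7 in PNx and from 106 to 139.7 CPM with a median of 128 in PNx+NaKtide. Its fold changes were small, at -0.33 (SE 0.31, adjusted p = 0.481) for PNx over Control and 0.21 (SE 0.31, adjusted p = 0.726) for PNx+NaKtide over PNx. Gm48529 holds the bulk of the counts at the locus. Its level was 172, 486 and 302 CPM in PNx replicates 1, 2 and 3, at 6087, 5685 and 5684 in PNx+NaKtide replicates 2, 3 and 4, and between 1322 and 3265 in the other 18. Those 3 PNx libraries were the lowest of all and those 3 PNx+NaKtide libraries the highest. Its log2 fold change in PNx+NaKtide against PNx was 1.38 (SE 0.51, unadjusted p = 0.0118, adjusted p = 0.357; adjusted p = 0.0840 with DESeq2 and 8.7e-05 with limma voom), and 0.54 without PNx replicates 1, 2 and 3.

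**Figure D4:**
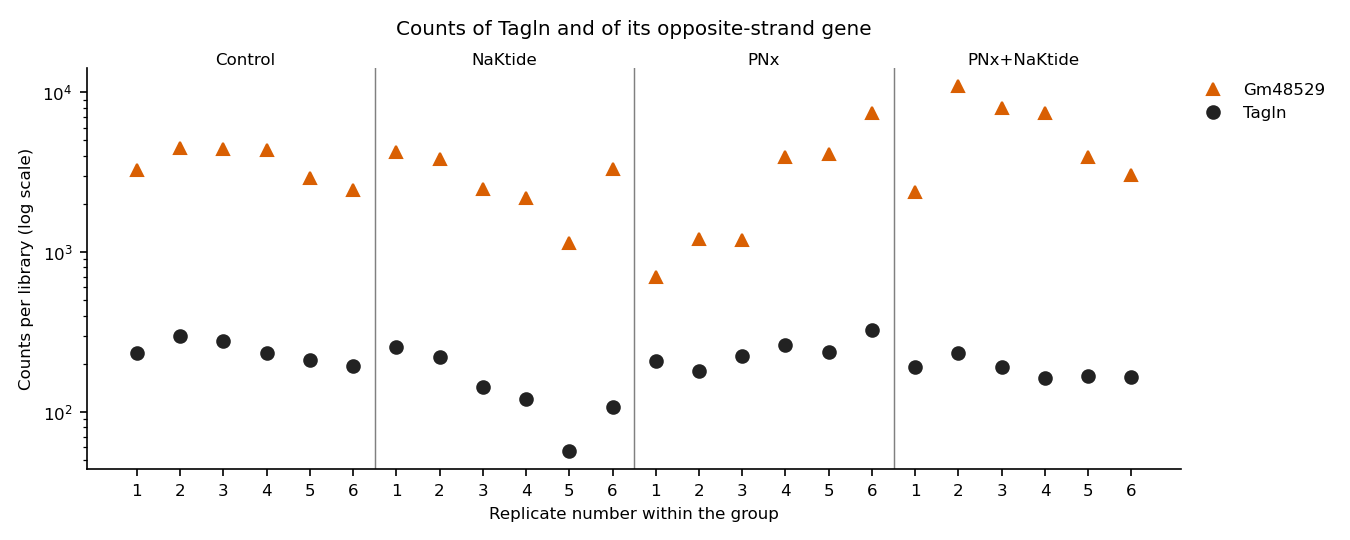
Counts of Tagln (circles) and of Gm48529 (triangles) in each library on a log scale, by group and replicate. Tagln stays between 57 and 325 counts, while Gm48529 runs from 699 in PNx replicate 1 to 10922 in PNx+NaKtide replicate 2.

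Tagln and Gm48529 had Pearson's r = 0.80 (permutation p = 4e-05) and Spearman's rho = 0.70 (permutation p = 0.00015, adjusted p = 0.0011) on the log2(CPM + 1) scale. Without the 2 most distant libraries r was 0.55, and without PNx replicates 1, 2 and 3 it was 0.35 (rho = 0.57). Within the 4 groups r lay between 0.55 and 0.96 (n = 6 each). With the other 7 genes, Gm48529 had r between 0.28 (Actg2) and 0.87 (Lmod1). Its rho with them lay between 0.026 (Actg2) and 0.63 (Lmod1). Among the 15 pairs of the 6 genes other than Tagln and Actg2, the median rho was 0.71 (0.41 to 0.95), and 14 pairs passed an adjusted p under 0.05 in the permutation test of rho. Without PNx replicates 1, 2 and 3 the median was 0.60. Acta2 and Myh11 were most alike, with rho = 0.95 (permutation p = 1e-05) and r = 0.78 (0.87 without the 2 most distant libraries). None of the 7 pairs with Actg2 and none of the 7 with Tagln passed by rho. By Pearson's r Tagln passed with Lmod1 (0.67), Myh11 (0.56), Cnn1 (0.50) and Actg2 (0.49). Without PNx replicates 1, 2 and 3 these r were 0.069, 0.076, 0.24 and 0.42. All points share library depth and tissue make-up.

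Across the 8 genes, the median log2 fold change in PNx against Control was -0.20, beside 0.36 over all tested genes, and 2 of the 8 were above the latter. Without PNx replicates 1, 2 and 3 the medians were 0.43 and -0.05, with 6 of 8 above. Without the replicates 6 of PNx and NaKtide they were -0.47 and 0.02, with none above. The direction of the group as a whole in PNx against Control therefore turned with the libraries kept.

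In PNx+NaKtide against PNx, all 8 genes had a log2 fold change above 0, with a median of 0.75 beside -0.37 over all genes. With an unadjusted p under 0.05 stood 3 of the 8 (Myh11, Cnn1 and Lmod1, all higher), against 4.07% of all genes in that direction. Without PNx replicates 1, 2 and 3, 4 of the 8 were above 0 and the medians were 0.09 and -0.01. Without PNx+NaKtide replicates 2, 3 and 4 they were 0.32 and -0.49, and 7 of the 8 were above 0. DESeq2 called Cnn1 (2.33, adjusted p = 0.0462), Myh11 (1.61, adjusted p = 0.0804) and Lmod1 (1.30, adjusted p = 0.0895) as higher, where it called 1.72% of its 15717 genes higher. Over all alternatives the adjusted p of these genes ran from 0.0013 to 0.589 for Cnn1, from 0.00029 to 0.999 for Myh11 and from 0.00014 to 0.612 for Lmod1.

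**Figure D5:**
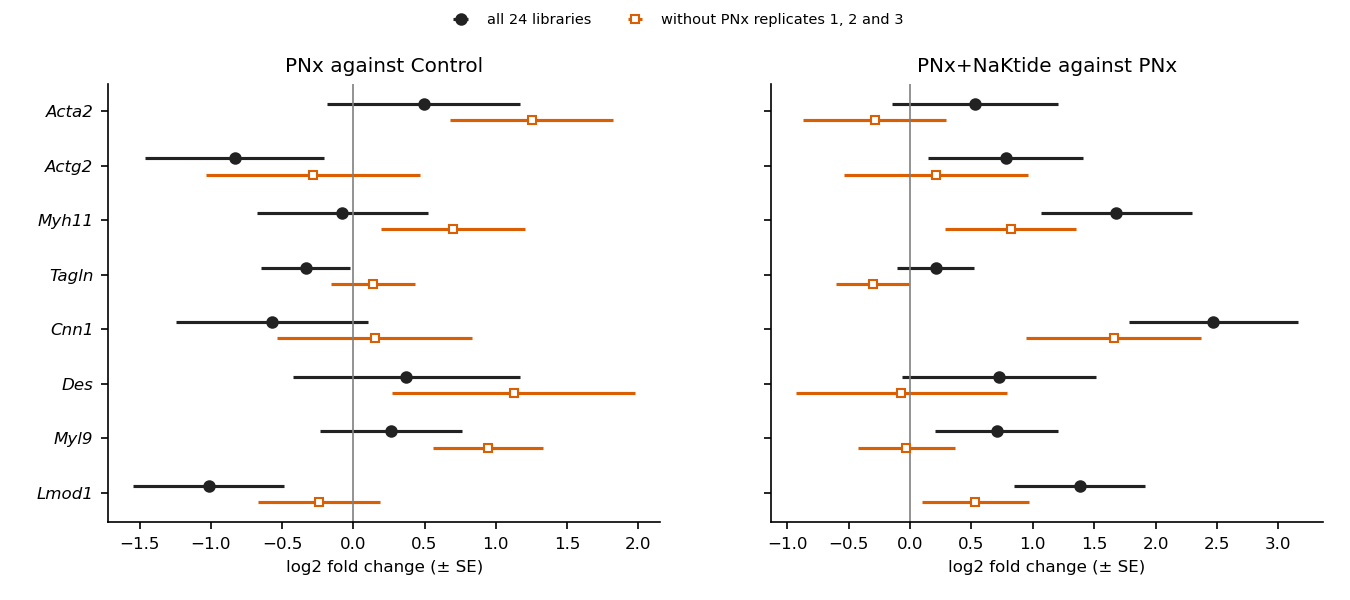
Log2 fold change with its standard error for each gene in PNx against Control (left) and PNx+NaKtide against PNx (right), from all 24 libraries (filled circles) and without PNx replicates 1, 2 and 3 (open squares). On the right the filled circles all lie above 0, and 4 of the open squares lie below it.

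In NaKtide against Control edgeR called no gene, and 1031 of all genes had an unadjusted p under 0.05 (DESeq2 called 3 and limma voom 2, none of them among the 8). Apart from Des, log2 fold changes in NaKtide against Control lay between -0.61 (Lmod1) and 0.26 (Acta2), each with adjusted p = 1. PNx+NaKtide against NaKtide gave 1.86 for Cnn1 (SE 0.68, unadjusted p = 0.0107) and 1.52 for Myh11 (SE 0.61, unadjusted p = 0.0190), with adjusted p = 1 for both, where 1.5% of all genes had an unadjusted p under 0.05 as higher. Without PNx+NaKtide replicates 2, 3 and 4 these were 0.18 and -0.11. The interaction, which asks whether nephrectomy acted differently with NaKtide than with GFP, had an unadjusted p under 0.05 for 2 of the 8, both positive, against 3.48% of all genes in that direction. These were Cnn1 at 2.43 (SE 0.96, adjusted p = 0.492) and Lmod1 at 1.99 (SE 0.76, adjusted p = 0.492), which became 0.74 and 1.49 without those 3 libraries. The contrasts of Control with PNx and of PNx with PNx+NaKtide share the PNx libraries, so their values are not independent.

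Other genes of the pathway were not called by edgeR either. It called 0.0766% of all genes in PNx against Control and no gene in the other tests. Of 30 genes of smooth muscle contraction, edgeR called none in PNx against Control. DESeq2 called 5 of them there, beside 7764 of all genes. By edgeR, 2 of the 30 had an unadjusted p under 0.05 as higher and 2 as lower (18.5% and 6.88% of all genes). Their median log2 fold change was 0.35. At the ends were Rock1 (1.90) and Synpo2 (1.55) on the high side, and the calcium channel gene Cacna1c (-1.20) and the myosin phosphatase subunit Ppp1r12b (-1.18) on the low side, all as log2 fold changes. In PNx+NaKtide against PNx edgeR called none of the 30, and DESeq2 called 2, beside 1514 of all genes. By edgeR, 3 had an unadjusted p under 0.05 in each direction (4.07% and 8.6% of all genes as higher and lower). The log2 fold changes of 22 were above the median of all genes. There caldesmon (Cald1, 2.52) and tropomyosin 2 (Tpm2, 1.56) stood highest and the kinases Rock2 (-1.98) and Rock1 (-1.50) lowest.

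Of 10 regulators of smooth muscle genes, 8 were in the table by these symbols and edgeR called none in any comparison. DESeq2 called 2 in PNx against Control, beside 7764 of all genes, and 1 in PNx+NaKtide against PNx, beside 1514. In PNx against Control, Klf4, a repressor of the contractile program, was at 2.06 and Heyl at 1.75, while Notch3, a receptor of arterial smooth muscle, was at -1.40 and Elk1 at -0.66 on the log2 scale. In PNx+NaKtide against PNx, Klf4 was at -1.86, Gata6 at -1.58, Notch3 at 0.72 and Elk1 at 1.159. Of 16 relatives of the 8 genes, 14 were tested and edgeR called none. DESeq2 called 2 and 1 in the same comparisons, beside the same totals. The skeletal actin Acta1 had a log2 fold change of 6.93 in NaKtide against Control and -4.46 in PNx+NaKtide against NaKtide, and it stood at 323 CPM in NaKtide replicate 6.

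The 8 genes of at least 5 CPM whose levels over the 24 libraries were most like the summed level of the contractile genes were filamin A (Flna, rho = 0.893), the tropomyosin Tpm2 (0.870), smoothelin (Smtn, 0.823), the tropomyosin Tpm1 (0.798), Sparcl1 (0.780), Csrp1 (0.763), Klc4 (0.758) and Pdcd11 (0.755). These correlations describe libraries that share depth and tissue make-up. Smtn shares 753 exon bases with the opposite-strand genes Gm11946 and Gm11947 (summed over both), and Pdcd11 shares 436 with Calhm2. Markers of other vessel wall cells were highest in other libraries than Myh11 and Cnn1, and in the same library, PNx replicate 6, as Acta2 (75.5 CPM) and Myl9 (88.3 CPM). The 10 endothelial markers summed to 714 CPM in PNx replicate 6 and 520.5 in NaKtide replicate 6, and the other 22 libraries had from 35.1 to 140.4. The 10 pericyte markers summed to 429 and 255 CPM in those libraries and to at most 47.0 elsewhere. In PNx+NaKtide replicates 2, 3 and 4, where Myh11 and Cnn1 were highest, the endothelial sums were 54.6, 47.9 and 66.8 CPM. In NaKtide replicate 6 much of the endothelial sum was 1 gene, Egfl7, at 431 CPM. Every other endothelial marker was highest in PNx replicate 6, among them Cdh5 at 123 and Pecam1 at 112 CPM. The median of Egfl7 over the 24 libraries was 45.5 CPM, and the next highest median was 4.76 (Vwf).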

How the data were processed

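RNA from mouse visceral adipose tissue was sequenced as 24 stranded mRNA libraries. The authors trimmed reads with Trimmomatic 0.38, aligned them to GRCm38 with HISAT2 2.1.0 and deposited raw read counts per gene and FPKM values, and analysed the counts with DESeq2 1.20.0. The strand setting of counting and the annotation release are not given in the sources used here.

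Here, groups came from the sample titles. Genes with over 10 counts in all (26116 of 54232) were normalized with TMM factors and fitted with edgeR 4.0.16 (R 4.3.3), quasi-likelihood, robust, 1 mean per group, with 5 contrasts and Benjamini-Hochberg adjustment at 0.1. The alternatives were DESeq2 1.42.0, its size factors, limma 3.58.1 voom with sample weights, no filter, a replicate block and leaving out libraries, and 3 sets of libraries were left out together after seeing the data. The edgeR fit was tested on simulated data without subsets of libraries inside a group. That test therefore does not cover the splits seen inside PNx and PNx+NaKtide. Relations used two-sided permutation tests with 100000 resamples. Exon positions came from GENCODE M21 (54165 IDs matched) and promoters from RefSeq.

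The libraries held 679250 to 2979505 counts, and intervals cover counting error only. The study writes of the libraries of a group as animals, while the labels do not say whether each came from a separate mouse, and p-values measure the spread between libraries. The members and lists were chosen with earlier results of these data known. Named genes were all 8 members, opposite-strand partners, some markers, and the 8 genes most alike in level. Of the contraction and regulator lists, the 2 highest and 2 lowest genes with at least 1 CPM were named in the comparisons shown. Of the relatives, Acta1 was named.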

Additional observations from a re-analysis of the deposited data

Results flagged for a closer look

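Of 36 sets of 6 libraries examined for a value far from the rest, 2 held one, and chance gives about 1 in 20. Cnn1 stood at 10.2 CPM in Control replicate 1, where the next Control library had 6.02. Des stood at 219 CPM in NaKtide replicate 6, where the next NaKtide library had 21.2, and the 11 skeletal muscle markers were highest in that same library.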

How the results depend on the processing

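Values are log2 fold changes, and the cause of each change was not tested. Over settings that leave out no single library, 262 gene values kept their direction and side of the threshold, 23 kept their direction and passed the threshold, and 35 turned sign, of which Acta2, Des and Myl9 in PNx against Control with limma voom also passed it. In PNx against Control, 20 genes were called by edgeR with TMM factors, 8696 with DESeq2's size factors, 1 without the filter on low counts, 7764 with DESeq2, 16654 with limma voom, 0 without PNx replicates 1, 2 and 3, 0 without PNx+NaKtide replicates 2, 3 and 4, and 5575 without the replicates 6 of PNx and NaKtide. Of the contractile genes, 8 were called there by limma voom and 1 without those replicates 6. In PNx+NaKtide against PNx, where edgeR called none, DESeq2 called 1514 genes (3 of the 8), limma voom 11479 (8 of the 8), and edgeR without PNx+NaKtide replicates 2, 3 and 4 3746. DESeq2 called 3 and limma voom 2 genes in NaKtide against Control, and DESeq2 2 in PNx+NaKtide against NaKtide. For the interaction DESeq2 called 94 and limma voom 6662 (6 of the 8). Myh11 in PNx against Control was 0.077 with DESeq2's size factors and 0.077 with DESeq2. With limma voom, PNx against Control gave -1.38 for Acta2, -1.36 for Des and -1.21 for Myl9, and Des was 0.33 in PNx+NaKtide against NaKtide and 1.68 in the interaction.

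Without PNx replicates 1, 2 and 3, PNx against Control gave 0.70 for Myh11, 0.14 for Tagln and 0.15 for Cnn1. PNx+NaKtide against PNx then gave -0.29 for Acta2, -0.30 for Tagln, -0.070 for Des and -0.031 for Myl9, NaKtide against Control -0.034 for Actg2 and -0.0052 for Cnn1, and the interaction -0.49 for Acta2, -0.0062 for Tagln and -0.057 for Myl9. Without PNx+NaKtide replicates 2, 3 and 4, Acta2 was -0.024 in PNx+NaKtide against PNx and -0.22 in the interaction, Myh11 -0.11 in PNx+NaKtide against NaKtide and -0.034 in the interaction, Actg2 0.026 in PNx+NaKtide against NaKtide and -0.031 in NaKtide against Control, and Cnn1 -0.021 in the latter. Without the replicates 6 of PNx and NaKtide, PNx against Control gave -0.38 for Acta2, -0.47 for Des and -0.42 for Myl9, and Des was 0.38 in PNx+NaKtide against NaKtide and 0.85 in the interaction.

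Correlations of same-numbered libraries ran from -0.59 to 0.71. Those over 0.1 ranged from 2 of 6 pairs (NaKtide against Control) to 4 of 6 (PNx+NaKtide against PNx). Differently numbered libraries were not compared, so whether replicate numbers pair the libraries was not tested. With the replicate number as a block, 1 gene was called in PNx against Control and 2 in the interaction, none of them among the 8, Des was -0.24 and Myl9 -0.040 in PNx against Control, and Actg2 was -0.33 and Cnn1 -0.091 in NaKtide against Control. Leaving out 1 library at a time, the genes called ran from 0 to 8645 in PNx against Control and from 0 to 1 in the interaction, and the contractile genes called from 0 to 1 in PNx against Control, where the gene was Lmod1 without PNx replicate 4 or 6. PNx against Control then ran from -0.38 to 0.73 for Acta2, from -0.48 to 0.15 for Myh11, from -0.46 to 0.63 for Des and from -0.41 to 0.49 for Myl9. NaKtide against Control ran from -0.13 to 0.49 for Acta2, from -0.25 to 0.26 for Actg2, from -0.068 to 0.20 for Myh11, from -0.36 to 0.28 for Cnn1 and from -0.039 to 0.22 for Myl9. PNx+NaKtide against NaKtide ran from -0.34 to 0.20 for Actg2 and from -1.69 to 0.38 for Des, and the interaction of Des from -2.10 to 0.0071. Depth limits Cnn1 and Lmod1 most, with 389 and 453 counts over the 24 libraries.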
